A study of Mus musculus with 4 samples.

Results

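The 10 genes described here belong to the AP-1 and immediate early response, and were followed through tumors of the mouse cell line LLC, or Lewis lung carcinoma, that had or had not received hypofractionated radiotherapy (RT). They are Fos, Fosb and Fosl1, Jun, Junb and Jund, Atf3, Egr1, Ier2 and Ier3. They were matched by symbol, all 10 were found in all 4 libraries, and they stand among 18605 genes that every table lists. LLC cells had been injected under the skin of C57/BL6N mice of 6 to 8 weeks, radiation was given on days 7 to 9 after injection, and tumors were taken 72 h after radiation. The radiation naive control (NT) was mock treated and is 1 library made from 3 pooled tumors. The RT group is 3 libraries, RT1 to RT3, with 1 irradiated tumor in each, given 8 Gy in each of 3 fractions (a total of 24 Gy). Both groups share the mouse strain and the 1 transplanted line. Tumors were taken apart with enzymes before cells were loaded into microwells, and messenger RNA molecules were counted by unique molecular identifiers (UMIs).

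AP-1 is a transcription factor built from a pair of proteins with basic leucine zippers, a Jun protein with a second Jun, a Fos or an ATF protein. Immediate early genes are transcribed from factors already present in the cell, within minutes of a growth signal, cytokine or stress, and their messengers decay quickly. They are also known to switch on while a tissue is cut and digested, so their level in dissociated cells carries both the state of the tissue and its handling. Since NT is 1 library, radiation and the handling of that library cannot be told apart in a comparison of NT with RT.

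The tables held 69667759 UMIs on 10141 barcodes in NT, 78585759 on 15346 in RT1, 108699844 on 14994 in RT2 and 85660188 on 15324 in RT3. The table of RT2 stood apart. It listed 18605 genes where each other table listed 32285, and no barcode exceeded 11.95% mitochondrial UMIs, against highest values of 92.6% in NT, 91.5% in RT1 and 97.0% in RT3. Pairs of libraries shared 182 to 277 barcodes, at most 1.85% of either library. After filtering, 55058 barcodes remained, of which 54130 fell into 10 populations and 928 into a cluster of mixed markers and high doublet scores (median 0.315, against 0.0327 to 0.0631 in the other clusters) that was left out. Clusters were built without the 10 genes and without every list compared below. A population is called tumor-like, macrophage-like and so on where its marker genes led, and 2 clusters stayed unnamed and are called by their leading genes, Lum and Igfbp4 or Dpt and Sox9. Both carried the 5 tumor markers at the summed level of tumor-like cells, 2275 CPM and 2285 CPM in NT against 2329 CPM. CPM is UMIs of a gene per 1000000 UMIs of the same population in the same library. The smallest populations held few NT cells, 17 fibroblast-like, 20 neutrophil-like, 33 endothelial-like and 76 dendritic-like cells.

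The promoters of the gene that was higher in every RT library in all populations, Ier3, and of the most abundant Jun and Fos genes are shown first, so that the letters read by the NF-kappa B and AP-1 families can be seen. RefSeq entries of build GRCm38.p6 were at hand for 7 of the 10 genes, each from 250 bases before to 50 bases after the start, and none were shown for Fosl1, Egr1 and Ier2. Letters searched on both strands were TGACTCA and TGACGTCA, the sites of Fos-Jun and of ATF dimers, TGACATCA, the Jun-ATF site known from the Jun promoter, GCGTGGGCG, the site of Egr1, and the CArG box and NF-kappa B site by their consensus. None of these letter runs contains another. Of each window, the 250 bases before the start are shown, which lie at chr17:35821463-35821712 on the plus strand for Ier3, chr4:95052223-95052472 on the minus strand for Jun and chr12:85473640-85473889 on the plus strand for Fos. Capitals mark the NF-kappa B site in Ier3 and Fos, which starts 92 and 214 bases before the start site, and TGACATCA in Jun, which starts 45 bases before it.
Ier3: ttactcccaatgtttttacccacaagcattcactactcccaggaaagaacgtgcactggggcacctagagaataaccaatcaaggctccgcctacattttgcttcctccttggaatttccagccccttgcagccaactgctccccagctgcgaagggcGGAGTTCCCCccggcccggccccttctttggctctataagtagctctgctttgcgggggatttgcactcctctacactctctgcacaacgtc
Jun: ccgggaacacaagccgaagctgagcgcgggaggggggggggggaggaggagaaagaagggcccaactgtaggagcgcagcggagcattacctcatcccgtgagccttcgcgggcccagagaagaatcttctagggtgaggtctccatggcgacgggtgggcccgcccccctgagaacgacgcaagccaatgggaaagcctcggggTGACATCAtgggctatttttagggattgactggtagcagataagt
Fos: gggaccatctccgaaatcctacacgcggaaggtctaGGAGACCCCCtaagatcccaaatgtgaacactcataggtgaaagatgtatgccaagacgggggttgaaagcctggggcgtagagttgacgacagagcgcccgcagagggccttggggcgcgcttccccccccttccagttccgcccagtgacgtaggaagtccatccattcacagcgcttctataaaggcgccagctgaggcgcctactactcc
The NF-kappa B consensus matched in Fos, Fosb and Ier3 among the 7 promoters and in 8.46% of 32851 mouse promoters of the same length. TGACATCA matched in Jun and in 3.62% of all promoters. TGACTCA (5.20% of all promoters), TGACGTCA (1.79%), the CArG box (1.63%) and GCGTGGGCG (0.612%) matched in none of the 7 windows. A match describes letters in this window and says nothing of what bound there.

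Across populations, levels of the 10 genes were compared with tumor-like cells in 1 fit over 40 sums of UMIs, 1 per population and library, with the library as a block (edgeR's quasi-likelihood test, Benjamini-Hochberg adjustment over 11351 genes, a call at an adjusted p under 0.05). Against tumor-like cells, macrophage-like cells were higher in 9 of 10 genes and lower in 1, where 42.2% of all genes were called higher and 38.8% lower. Monocyte-like cells were higher in 7 and lower in 1 (39.3% and 39.3% of all genes), fibroblast-like cells in 8 and 1 (27.4% and 23.2%), neutrophil-like cells in 7 and 0 (15.2% and 17.3%) and dendritic-like cells in 6 and 2 (25.7% and 28.3%). Endothelial-like cells were higher in 5 and lower in 1 (26.5% and 24.4%), the Lum-Igfbp4 cluster in 7 and 1 (32.8% and 22.5%) and the Dpt-Sox9 cluster in 7 and 0 (29.5% and 22.9%). Lymphocyte-like cells were higher in 4 and lower in 4, with backgrounds of 29.5% and 32.5%. The scaling (TMM) set the contrast of macrophage-like with tumor-like cells 0.64 higher on the log2 scale than library totals did. With totals alone 54 and 15 calls stood in place of 60 and 11, Jun and Ier2 were no longer called higher in macrophage-like cells, and higher calls made up 31.7% in place of 52.1% of all calls in that contrast. For monocyte-like cells the shift was 0.57 and higher calls made up 31.9% in place of 50.01%, and with totals Jun and Ier2 were called lower there, which makes 7 higher and 3 lower. Ier2 in macrophage-like and Jun in monocyte-like cells changed sign. Over the 9 contrasts, higher calls made up 46.8% to 59.3% of all calls with TMM and 31.7% to 42.0% with totals.

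**Figure D1:**
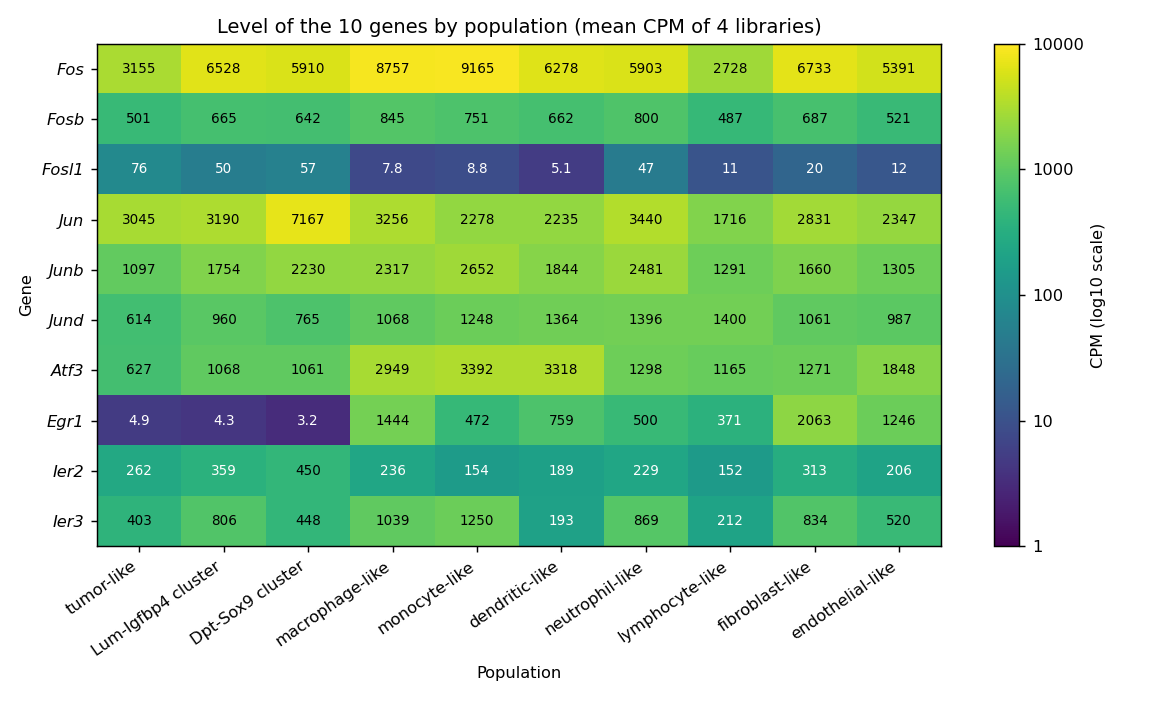
Mean level of the 10 genes over the 4 libraries (rows) in the 10 populations (columns), in CPM with a log10 color scale. Egr1 stands between 3.19 and 4.92 CPM in the 3 populations with tumor markers and between 371 and 2063 CPM in the others, while Fosl1 stands between 49.6 and 75.8 CPM in those 3 and between 5.08 and 46.7 CPM in the others.

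Fos, the inducible Fos protein that pairs with Jun, had the highest mean level of the 10 genes in 9 populations and came after Jun in the Dpt-Sox9 cluster. UMIs were counted at the 3′ end of messengers, so levels in CPM do not scale with gene length. Its level was 9165 ± 3270 CPM in monocyte-like and 8757 ± 741 CPM in macrophage-like cells (mean ± SD, n = 4 libraries), 3155 ± 278 CPM in tumor-like and 2728 ± 936 CPM in lymphocyte-like cells. In the order of levels, monocyte-like and macrophage-like cells were not separated, macrophage-like cells lay above the next population, fibroblast-like cells (log2 difference 0.80, adjusted p = 0.00102 in edgeR), and the 6 populations from fibroblast-like to endothelial-like were not separated from their neighbours. Macrophage-like cells exceeded tumor-like cells by 2.11 on the log2 scale (SE 0.209). For shares of cells with a UMI, cells under 1500 UMIs were left out and the others thinned to 1500, which removed 835, 1377, 1415 and 1626 tumor-like cells in NT, RT1, RT2 and RT3 and kept 4556, 4647, 3833 and 5446. Among kept cells, Fos UMIs were seen in a mean of 83.2% of tumor-like and 96.7% of macrophage-like cells.

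Fosb, another inducible Fos protein, ranged less, from 487 CPM in lymphocyte-like to 845 CPM in macrophage-like cells. Within macrophage-like cells a small cluster had a mean of 2652 CPM of Fosb, and the other clusters 654 and 766 CPM. Fosl1, which encodes Fra-1 and is known from invasive carcinoma cells, had the opposite distribution, with 75.8 ± 16.7 CPM in tumor-like, 57.2 ± 13.6 CPM in Dpt-Sox9 and 49.6 ± 16.6 CPM in Lum-Igfbp4 cells against 7.75 ± 4.52 CPM in macrophage-like cells. It was called lower than in tumor-like cells in 7 of 9 contrasts, by -2.71 on the log2 scale in macrophage-like cells. Within tumor-like cells a cluster led by ribosomal protein genes had a mean of 248 CPM of Fosl1, and the other clusters 47.1 to 64.2 CPM. The part of that cluster in the call for the Lum-Igfbp4 cluster, which was among the 7, was not tested. Neutrophil-like cells, which also carried tumor markers at 959 to 1456 CPM in the 4 libraries, had 46.7 CPM of Fosl1. The part of tumor RNA in that value was not tested.

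Among Jun genes, Jun itself stood out in the Dpt-Sox9 cluster, at 7167 ± 754 CPM against 3440 CPM in neutrophil-like cells, the next population by mean CPM (log2 difference 1.25, adjusted p = 1.3e-07 in edgeR), and 3045 ± 576 CPM in tumor-like cells. On the scale of the fit macrophage-like cells came closest, at a difference of 0.69 (adjusted p = 0.00028 in edgeR). The level in the Dpt-Sox9 cluster was the highest of a Jun gene in any population. Junb, which often restrains Jun, was highest in monocyte-like (2652 ± 1100 CPM) and lowest in tumor-like cells (1097 ± 342 CPM). Jund, the Jun gene known for steady expression, was highest by mean CPM in lymphocyte-like (1400 ± 289 CPM), not separated from neutrophil-like cells, and lowest in tumor-like cells (614 ± 176 CPM), and 1 of 9 neighbouring pairs in its order differed. On the scale of the fit lymphocyte-like cells stood at -0.24 against monocyte-like cells and were not separated from them (adjusted p = 0.252 in edgeR). Lymphocyte-like cells were thus high in Jund and low in Jun, at 1716 ± 182 CPM.

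Atf3, a stress-induced partner of Jun, was highest in 3 myeloid populations, with 3392 ± 1050 CPM in monocyte-like, 3318 ± 558 CPM in dendritic-like and 2949 ± 619 CPM in macrophage-like cells. These 3 were not separated from each other in the order, and macrophage-like cells lay above endothelial-like cells by 1.16 (adjusted p = 0.000105 in edgeR). Neutrophil-like cells, also myeloid, had 1298 CPM, below endothelial-like cells in the order. Tumor-like cells had the lowest level, 627 ± 135 CPM.

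Egr1, a zinc finger factor induced through serum response factor, separated the populations most. Fibroblast-like cells had 2063 ± 574 CPM, macrophage-like cells 1444 ± 268 CPM, lymphocyte-like cells 371 ± 133 CPM and tumor-like cells 4.92 ± 3.82 CPM. Macrophage-like cells exceeded tumor-like cells by 9.07 on the log2 scale (SE 0.428), and even lymphocyte-like cells did by 6.57 (adjusted p = 5.57e-18 in edgeR). The Lum-Igfbp4 and Dpt-Sox9 clusters, at 4.25 and 3.19 CPM, were not separated from tumor-like cells (log2 difference 0.11, SE 0.372, and -0.34, SE 0.417).

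Ier2, a small nuclear regulator, and Ier3, a stress gene controlled by NF-kappa B and p53 that acts on cell survival, followed different orders. Ier2 was highest in the Dpt-Sox9 cluster at 450 ± 240 CPM and lowest in lymphocyte-like cells at 152 ± 57.9 CPM. Ier3 was highest in monocyte-like (1250 ± 785 CPM) and macrophage-like cells (1039 ± 595 CPM) and lowest in dendritic-like cells (193 ± 132 CPM). These means average NT and RT libraries, between which Ier3 differed as follows.

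No test was run between NT and RT, since NT is 1 library and has no spread of its own. A gene was called when its CPM differed at least 2-fold from NT in the same direction in every RT library and had at least 50 UMIs over the 4 libraries in that population. Of 100 pairs of gene and population, 95 passed that minimum. The 5 that did not were Fosl1 in dendritic-like, neutrophil-like, lymphocyte-like, fibroblast-like and endothelial-like cells. Of the 95, 12 were called higher in RT and 0 lower, where 4.27% and 1.17% of all 76098 pairs of gene and population were. Of the 12, 9 were Ier3, 2 were Egr1 and 1 was Atf3. By population, the share of all genes called higher was 3.38% in tumor-like cells, 3.11% in the Lum-Igfbp4 and 2.81% in the Dpt-Sox9 cluster, 4.13% in macrophage-like, 6.28% in monocyte-like, 4.61% in dendritic-like, 6.87% in neutrophil-like, 2.48% in lymphocyte-like, 10.8% in fibroblast-like and 4.37% in endothelial-like cells. Without regard to size, 25 pairs lay above NT in every RT library and 32 below, against 31.7% and 31.7% of all pairs, which puts the 10 genes as a group near the background. The share differed between populations. Below NT in every RT library were 6 of 10 genes in tumor-like cells (29% of all genes), 8 of 10 in monocyte-like cells (22.5%) and 6 of 9 in neutrophil-like cells (42.3%), whereas in fibroblast-like cells 7 of 9 lay above NT (37.5%).

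**Figure D2:**
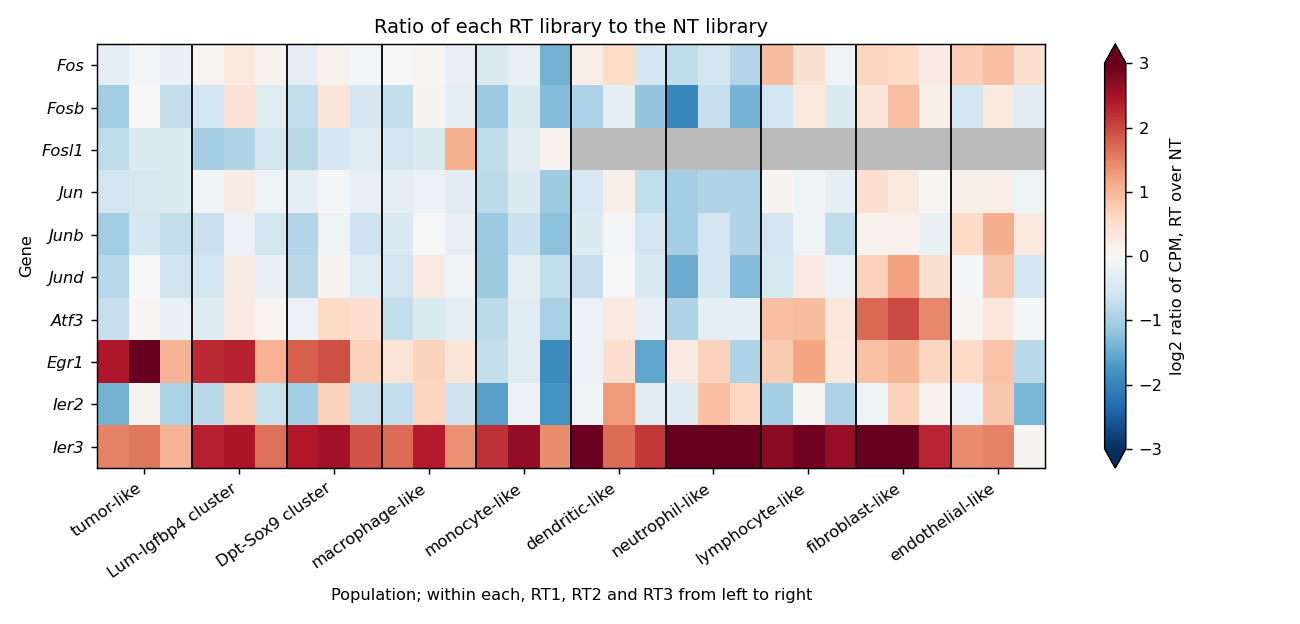
The log2 ratio of CPM in each RT library over NT for the 10 genes (rows), with 3 columns per population for RT1, RT2 and RT3. Red is higher than NT, blue is lower, and gray marks Fosl1 where it had under 50 UMIs. Ier3 is red in all 30 columns, and no other gene is.

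Ier3 was higher in each RT library than in NT in all 10 populations. In tumor-like cells the level was 183 CPM in NT, 512 in RT1, 546 in RT2 and 369 in RT3, a mean log2 ratio of 1.35 ± 0.30 (SD, n = 3 RT libraries). RT3 was close to the 2-fold limit, at 2.01-fold with a counting interval of 1.96 to 2.07 (exact 95% interval, which covers counting error only, as all intervals here). The call in tumor-like cells was lost in 4 of 17 settings, without cells of high doublet scores, at resolution 0.4, with a mean of per-cell CPM and after thinning. The 17 include the main setting and settings that could not lose a call, as given below. The Lum-Igfbp4 cluster read 220 CPM in NT against 1101, 1210 and 692 CPM in RT1, RT2 and RT3, with a mean of 2.14 ± 0.43. The Dpt-Sox9 cluster read 114 CPM in NT and 601, 652 and 423 CPM, a mean of 2.27 ± 0.33. In all 3 populations with tumor markers NT was the lowest library and RT3 the lowest of the RT libraries. In the Lum-Igfbp4 cluster the 7 fibroblast markers went from 1867 CPM in NT to 3525, 2826 and 2649 CPM. The 6 monocyte markers there went from 169 CPM to 352, 364 and 280 CPM. In the Dpt-Sox9 cluster these lists went from 2458 CPM to 4143, 3918 and 4051 CPM and from 75.4 CPM to 172, 166 and 171 CPM. Their part in the values of both clusters was not tested.

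In macrophage-like cells Ier3 read 349 CPM in NT against 1114, 1789 and 902 CPM in RT1, RT2 and RT3 (mean log2 ratio 1.80 ± 0.51). In monocyte-like cells it read 347 CPM in NT and 1577, 2154 and 921 CPM (2.07 ± 0.62). In lymphocyte-like cells it read 40.3 CPM in NT, from 33 UMIs, and 263, 299 and 246 CPM (2.74 ± 0.14). The 3 RT libraries lay closest together in lymphocyte-like cells. Markers of other cells moved in the lymphocyte-like sums as well, the 7 of macrophages, led by C1qb, from 47.6 CPM in NT to 376, 303 and 137 CPM and the 4 of mast cells or basophils, led by Mcpt8, from 8.55 CPM to 16.1, 59.6 and 261 CPM. Their part in the result was not tested. In the macrophage-like sums the 7 macrophage markers went from 6863 CPM in NT to 11323, 11936 and 9254 CPM. The 7 neutrophil markers there went from 43.4 CPM to 97.2, 158 and 109 CPM. Their part in the macrophage-like values was not tested.

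Populations with few NT cells gave wide intervals. Neutrophil-like cells had 3 Ier3 UMIs in NT (107 CPM) against 1276, 1220 and 872 CPM, and the ratio of RT1 to NT was 12.0-fold with a counting interval of 4.06 to 58.3. Markers of other cells moved in the neutrophil-like sums, the 6 of monocytes from 71.0 CPM in NT to 1184, 1523 and 675 CPM and the 7 of macrophages from 0 to 248, 232 and 137 CPM, and their part in the result was not tested. Fibroblast-like cells had 11 UMIs in NT (119 CPM) against 1005, 1628 and 584 CPM, and dendritic-like cells 8 UMIs (47.3 CPM) against 365, 152 and 206 CPM. The lowest ends of these intervals were 2.76-fold in neutrophil-like, 2.70-fold in fibroblast-like and 1.56-fold in dendritic-like cells. In the fibroblast-like sums the 4 pericyte markers went from 4704 CPM in NT to 884, 24.4 and 267 CPM. The 5 tumor markers there went from 32.6 CPM to 752, 1045 and 396 CPM, and the 7 fibroblast markers from 76150 CPM to 38938, 54848 and 56301 CPM. Their part in the Ier3 and the other fibroblast-like values was not tested. The dendritic-like sums also differed in make-up. The 7 dendritic cell markers, led by Ccr7, read 3681 CPM in NT and 2062, 1694 and 2265 CPM in RT, and the 6 monocyte markers, led by Plac8, read 509 CPM and 839, 1253 and 855 CPM. Their part in this and the other calls in dendritic-like cells was not tested. At resolution 0.4 the Ier3 call in dendritic-like cells was lost, with a mean log2 ratio of 1.12 in place of 2.25. Endothelial-like cells read 275 CPM in NT (47 UMIs) and 732, 777 and 294 CPM, so RT3 at 1.07-fold (0.67 to 1.68) was not separated from NT and no call was made. Markers of other cells moved in the endothelial-like sums as well, the 5 of tumor cells from 35.2 CPM in NT to 345, 151 and 571 CPM, the 7 of fibroblasts from 147 CPM to 692, 160 and 865 CPM and the 7 of macrophages from 5.86 CPM to 31.6, 371 and 0 CPM. Their part in this and the other endothelial-like values was not tested.

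Among cells of at least 1500 UMIs, thinned to 1500, the share with an Ier3 UMI moved in the same direction. It was 21.4% of tumor-like cells in NT against 45.4%, 45.3% and 34.8% in RT1, RT2 and RT3. It was 27.6% of macrophage-like cells in NT and 64.5%, 77.5% and 56.1% in the RT libraries, and 3.92% of lymphocyte-like cells in NT and 22.4%, 18.9% and 21.9% in RT. This left out 175 of 718, 736 of 2728, 527 of 2659 and 491 of 1602 macrophage-like and 219 of 372, 195 of 356, 227 of 593 and 165 of 334 lymphocyte-like cells in NT, RT1, RT2 and RT3. Without thinning, over all cells, the shares were 50.8%, 67.4%, 70.6% and 60.2% in tumor-like, 41.5%, 72.8%, 85.2% and 64.7% in macrophage-like and 6.18%, 20.2%, 29.0% and 21.0% in lymphocyte-like cells.

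**Figure D3:**
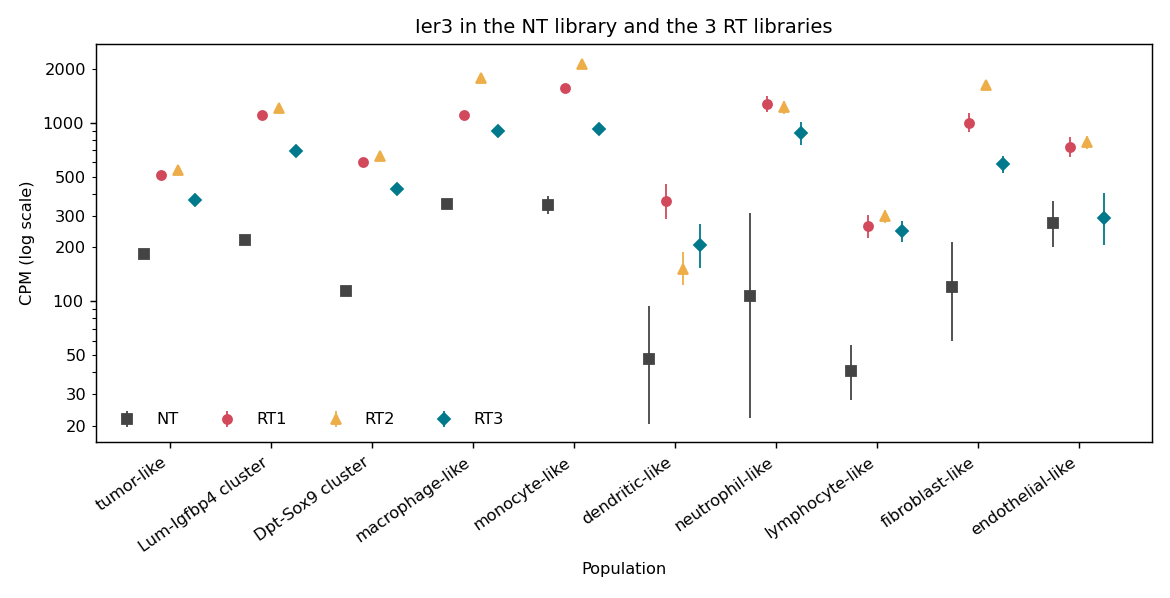
Ier3 in CPM (log scale) in the NT library and the 3 RT libraries for each population, with exact 95% counting intervals as bars. The NT square is the lowest point in every population, and in endothelial-like cells the RT3 interval overlaps it.

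Ier3 was also higher in RT within clusters. Several of these clusters are whole populations, whose values are those given above. The mixed cluster left out elsewhere is counted here too. Only the tumor-like and macrophage-like clusters divide a population further. Of 18 clusters, all 18 had Ier3 above NT in every RT library and 15 reached 2-fold in each, among them 5 of 6 tumor-like and 2 of 3 macrophage-like clusters. All clusters share the NT library. No share of all genes that pass these rules within clusters is given beside the counts. The exceptions were clusters whose Ier3 was already high in NT, a tumor-like cluster led by ribosomal protein genes (538 CPM in NT, 856, 770 and 829 CPM in RT) and a small macrophage-like cluster (1114 CPM in NT, 1395, 1703 and 1482 CPM in RT), beside endothelial-like cells. The ribosomal tumor-like cluster made up 9.55% of cells in NT against 2.5%, 4.02% and 6.10% in RT1, RT2 and RT3. In the other 5 tumor-like clusters the mean log2 ratio of Ier3 was 1.53 to 2.39, above the 1.35 of the pooled tumor-like cells.

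Egr1 was called higher in tumor-like cells and the Lum-Igfbp4 cluster, at levels near the floor. Tumor-like cells had 1.21 CPM in NT (54 UMIs in 44689638), 6.47 in RT1, 9.56 in RT2 and 2.45 in RT3. Markers of macrophages moved with it. Set against the level in macrophage-like cells of the same library, tumor-like cells carried 0.109%, 0.438%, 0.543% and 0.171% of the Egr1 level in NT, RT1, RT2 and RT3, 0.0603%, 0.284%, 0.338% and 0.185% of C1qb and 0.0645%, 0.420%, 0.501% and 0.200% of Csf1r, both genes of macrophages, Csf1r being chosen after its values were seen. Ptprc, read in the same way, stood at 0.258%, 0.558%, 0.920% and 0.687%. For Ptprc RT3 lay above RT1, where for Egr1, C1qb and Csf1r it lay below. The summed 7 macrophage markers, all with UMIs in tumor-like cells and led by C1qb, went from 4.21 CPM in NT to 30.0, 38.5 and 15.2 CPM. After thinning, 0.176%, 0.968%, 1.28% and 0.367% of tumor-like cells had an Egr1 UMI, against 55.2% to 77.1% of macrophage-like cells. In the Lum-Igfbp4 cluster Egr1 read 1.33 CPM in NT (12 UMIs) and 6.29, 6.63 and 2.76 CPM, and the same markers read 3.11 CPM and 31.7, 33.5 and 15.1 CPM. The part of macrophage RNA in the Egr1 signal of both populations was not tested. Within clusters, 1 of 6 tumor-like clusters passed the 2-fold rule for Egr1, from 3 UMIs in NT. The call in tumor-like cells was lost with at least 500 genes per barcode, without integration, with classes per cell and after thinning.

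In the populations with a mean Egr1 level of 371 CPM or more, Egr1 did not pass the 2-fold rule. Macrophage-like cells read 1106 CPM in NT and 1476, 1761 and 1434 CPM in RT, higher in each library (mean 0.49 ± 0.16). Fibroblast-like cells read 1282 CPM in NT and 2344, 2609 and 2016 CPM (0.85 ± 0.19). Monocyte-like cells went the other way, with 708 CPM in NT and 433, 555 and 192 CPM (mean -0.98 ± 0.80). Endothelial-like cells lay on both sides, 1020 CPM in NT and 1525, 1859 and 579 CPM in RT.

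Fos stayed close to NT in tumor-like and macrophage-like cells and lay below it in monocyte-like cells. Tumor-like cells read 3443 CPM in NT against 2863, 3334 and 2978 CPM in RT1, RT2 and RT3, with a mean log2 ratio of -0.17 ± 0.11. Macrophage-like cells read 9028 CPM in NT and 8981, 9346 and 7673 CPM, on both sides of NT (-0.06 ± 0.15). Monocyte-like cells read 12388 CPM in NT and 9229, 10378 and 4667 CPM, all lower, with RT3 far below the other 2 (-0.70 ± 0.62). Fos was higher than NT in every RT library in the Lum-Igfbp4 cluster (0.14 ± 0.12), in fibroblast-like (0.49 ± 0.21) and in endothelial-like cells (0.70 ± 0.22), and none of these reached 2-fold.

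Fosb was lower than NT in every RT library in tumor-like, monocyte-like, dendritic-like and neutrophil-like cells. These are 4 of 10 populations, near the 31.7% of all pairs of gene and population that were lower. In tumor-like cells it read 649 CPM in NT and 318, 645 and 393 CPM, so RT2 was at the NT level while RT1 and RT3 were not. The ribosomal tumor-like cluster described above, smaller in RT, had the highest Fosb of the tumor-like clusters, and read 1665 CPM in NT and 1500, 2079 and 1298 CPM in RT. The part of its share in the pooled Fosb ratio was not tested. In monocyte-like cells it read 1152 CPM in NT and 537, 849 and 465 CPM. Fosl1 was lower in all RT libraries in the 3 populations with tumor markers, from 98.1 CPM to 57.6, 73.4 and 74.2 CPM in tumor-like cells, 73.0 to 36.5, 39.2 and 49.7 CPM in the Lum-Igfbp4 cluster and 75.0 to 42.3, 53.1 and 58.3 CPM in the Dpt-Sox9 cluster. In the ribosomal tumor-like cluster, which had the highest Fosl1 of the tumor-like clusters, it lay on both sides of NT, with 260 CPM in NT and 241, 223 and 268 CPM in RT. The part of that cluster's share in the pooled Fosl1 ratio was not tested. Neutrophil-like cells read 35.5 CPM in NT, from 1 UMI, and 40.8, 34.2 and 76.1 CPM in RT. No UMI was found in NT among 168963 UMIs of dendritic-like and 170620 of endothelial-like cells.

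Junb showed the most uniform direction of the Jun genes. It was below NT in every RT library in 8 of 10 populations, and above in endothelial-like cells. Of all pairs of gene and population, 31.7% lay below NT in every RT library. The populations share the NT library, and no share of genes below NT in as many populations is given. Tumor-like cells read 1571 CPM in NT against 769, 1088 and 959 CPM in RT1, RT2 and RT3 (-0.76 ± 0.25), and monocyte-like cells read 4185 CPM in NT and 1955, 2698 and 1770 CPM (-0.99 ± 0.32). Endothelial-like cells read 891 CPM in NT and 1341, 1892 and 1095 CPM. At a limit of 1.5-fold in every RT library (4.13% of all pairs lower), 3 pairs were called lower, Junb in monocyte-like cells with Fosb and Jun in neutrophil-like cells.

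Jun was lower in all RT libraries in 5 of 10 populations, where 31.7% of all pairs of gene and population were. Tumor-like cells read 3885 CPM in NT and 2591, 2782 and 2923 CPM (-0.49 ± 0.09), where the 3 RT libraries lay close together. Neutrophil-like cells read 5363 CPM in NT (151 UMIs) and 2677, 2878 and 2841 CPM (-0.94 ± 0.06). The Dpt-Sox9 cluster, where Jun was highest, read 7907 CPM in NT and 6424, 7720 and 6618 CPM. Jund read 766 CPM in NT and 420, 760 and 508 CPM in tumor-like cells, lower with RT2 almost at the NT level, and 674 CPM in NT and 1094, 1554 and 921 CPM in fibroblast-like cells.

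Atf3 was called higher in fibroblast-like cells, where it read 467 CPM in NT (43 UMIs of 17 cells) and 1523, 1834 and 1259 CPM in RT, a mean of 1.70 ± 0.27. In that population other values moved as well. The 4 pericyte markers, led by Rgs5, summed to 4704 CPM in NT and 884, 24.4 and 267 CPM in RT, and the 5 tumor markers to 32.6 CPM in NT and 752, 1045 and 396 CPM. Their part in the result was not tested. In macrophage-like cells Atf3 was lower in each RT library, from 3729 CPM to 2247, 2757 and 3063 CPM, and in monocyte-like cells from 4748 CPM to 2733, 3669 and 2419 CPM. Lymphocyte-like cells were higher in each, from 773 CPM to 1443, 1470 and 971 CPM.

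Ier2 differed between RT libraries. It was below NT in 10 of 10 populations in RT1 and 8 of 10 in RT3, but in 1 of 10 in RT2. Tumor-like cells read 356 CPM in NT against 133, 376 and 183 CPM in RT1, RT2 and RT3, and monocyte-like cells 247 CPM in NT and 79.5, 220 and 71.4 CPM. Monocyte-like cells were the 1 population with RT2 below NT. In the others RT2 lay above NT, from 204 CPM against 200 CPM in lymphocyte-like cells to 356 CPM against 148 CPM in dendritic-like cells.

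For Fosb, Junb, Jund and Ier2, RT2 led the RT libraries in every population, while RT1 and RT3 changed places below it. RT2 was the highest RT library in 40 of 40 pairs of these genes and populations, 1.02 to 3.25 times RT1 (median 1.78) and 1.14 to 4.50 times RT3 (median 1.58). The median log2 ratio to NT over these pairs was -0.70 in RT1, 0.08 in RT2 and -0.57 in RT3. RT2 was also the highest RT library for Egr1 in 10 of 10 populations, for Fos, Atf3 and Ier3 in 8 and for Jun in 7. Fosl1 went the other way, with RT2 highest in 0 and RT3 highest in 9 of 10 populations. RT2 is also the library with 0 barcodes over 20% mitochondrial UMIs against 165, 317 and 264 in NT, RT1 and RT3, and its kept cells had a median of 5.63% mitochondrial UMIs against 6.80%, 6.43% and 6.39%. The part of that difference in the result was not tested. The order and the 4 genes were chosen after the values were seen, so the 40 of 40 follows from that choice. No share of all genes with RT2 highest is given beside it.

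**Figure D4:**
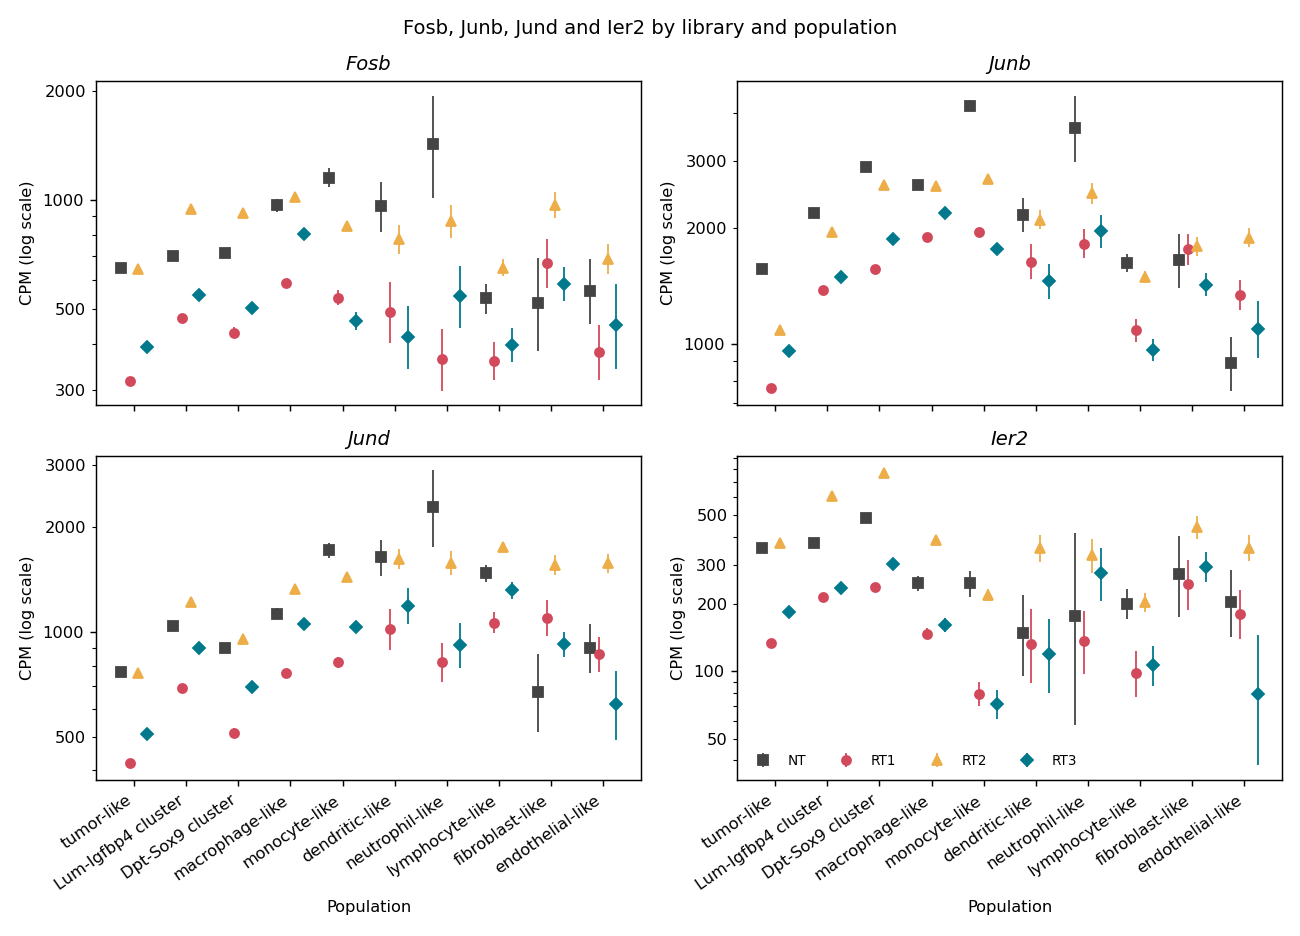
Fosb, Junb, Jund and Ier2 in CPM (log scale) by population in NT, RT1, RT2 and RT3, with exact 95% counting intervals. The RT2 triangle lies above RT1 and RT3 in every population of all 4 panels.

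The genes were also counted within single cells. After thinning, a tumor-like cell held a median of 5, 4, 5 and 4 of the 10 genes in NT, RT1, RT2 and RT3, and a macrophage-like cell 6, 7, 8 and 7. The Pearson correlation of Fos with Jun across tumor-like cells of 1 library was 0.44, 0.48, 0.53 and 0.50, over 4556, 4647, 3833 and 5446 cells, and Atf3 with Ier3 reached 0.09, 0.12, 0.15 and 0.12. Cells of a library share its preparation and every count comes from the same 1500 UMIs, so these values describe the libraries.

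Genes whose levels followed those of Fos most closely over the 40 sums, among 11792 genes, were Socs3, Dusp1, Zfp36, Egr2 and Nfe2l2 (Pearson r of log2(CPM + 1) 0.86, 0.83, 0.80, 0.74 and 0.73). For Atf3 they were Cd74, Zfp36, H2-Aa, H2-Eb1 and Tbc1d9 (0.85, 0.85, 0.84, 0.84 and 0.83). For Egr1 they were Smarca2, Ggh, Xist, Nsd1 and Icam1 (0.95, 0.94, 0.94, 0.94 and 0.94), and for Jun Palm3, Lima1, Parp3, Zfhx3 and Gm16183 (0.74, 0.73, 0.72, 0.71 and 0.71). The 40 sums share 4 libraries and 10 populations.

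Other genes of the pathway were read by the same rule, beside which 4.27% of all pairs were called higher and 1.17% lower. Of 10 further bZIP genes, 4 pairs of gene and population were called higher and 1 lower of 74 tested. Jdp2, which encodes a repressor that dimerizes with Jun, was higher in macrophage-like cells (28.2 CPM in NT, 89.2, 90.7 and 80.2 CPM in RT), monocyte-like cells (20.3 CPM, then 94.0, 88.9 and 87.0 CPM) and lymphocyte-like cells (15.9 CPM, then 53.7, 47.3 and 36.3 CPM), with RT libraries close to each other. Maff, a small Maf protein, was higher in fibroblast-like cells (54.3 CPM from 5 UMIs, then 187, 202 and 226 CPM), and Batf3, a factor of dendritic cells, was lower in macrophage-like cells (14.5 CPM, then 3.12, 3.24 and 2.54 CPM). The 7 dendritic cell markers, led by Ccr7, moved with Batf3 in macrophage-like cells, from 35 CPM in NT to 6.58, 5.82 and 9.31 CPM, and their part was not tested.

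Of 20 other immediate early genes, 5 pairs were called higher and 6 lower of 172. The orphan receptors Nr4a1, Nr4a2 and Nr4a3 were each lower in 1 population. Nr4a2 read 351 CPM in NT and 98.5, 144 and 158 CPM in monocyte-like cells. Nr4a1 read 2593 CPM and 1116, 1245 and 766 CPM in neutrophil-like cells, and Nr4a3 1983 CPM and 611, 390 and 740 CPM in dendritic-like cells, whose markers differed as given above. Fibroblast-like cells, with 17 NT cells and markers that moved as given above, held 5 of the calls (10.8% of all genes higher and 4.36% lower). Higher were Myc (217 CPM, then 942, 969 and 972 CPM), Klf4 and Csrnp1, and lower were Egr2 and Ccn2. In tumor-like cells none was called, and Klf2 read 2142 CPM in NT and 1191, 1637 and 1095 CPM in RT. Klf4 was also higher in endothelial-like cells, Ccn1 higher and Egr2 lower in neutrophil-like cells.

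Feedback genes, which switch the response off through phosphatases and messenger decay, had 3 pairs called higher and 1 lower of 149. Ppp1r15a, a phosphatase subunit of the stress response, was lower in monocyte-like cells (208 CPM, then 58.9, 103 and 56.9 CPM), Spry4 was higher in macrophage-like and lymphocyte-like cells and Dusp6 in dendritic-like cells. Over all populations 73 pairs lay below NT in every RT library and 35 above (31.7% of all pairs each), and in tumor-like cells 11 of 16 lay below (29% of all genes) and 3 above, with a median log2 ratio of -0.29. Dusp1, the phosphatase of MAP kinases, was among those above, and read 935 CPM in NT and 1141, 1393 and 1322 CPM in tumor-like cells. Upstream kinases and factors had 2 pairs called higher and 2 lower of 110, with Map2k4 higher and Elk3 lower in neutrophil-like cells and Elk4 higher and Mapk3 lower in endothelial-like cells, each from 1 to 18 NT UMIs. AP-1 target genes had 7 called higher and 3 lower of 87. Mmp9, a collagenase, was higher in the Lum-Igfbp4 cluster, neutrophil-like and monocyte-like cells (6.77 CPM, then 119, 52.4 and 17.9 CPM), while the 7 neutrophil markers in the monocyte-like sums went from 124 CPM to 427, 449 and 556 CPM and in the Lum-Igfbp4 cluster from 2.33 CPM to 6.75, 9.15 and 5.77 CPM, and their part was not tested. Mmp13 was lower in macrophage-like cells (529 CPM, then 213, 120 and 125 CPM). The other calls were Mmp3, higher in tumor-like (2.62 CPM, then 12.2, 7.02 and 6.99 CPM, where the 7 fibroblast markers read 874 CPM, then 1550, 1194 and 1564 CPM, a part not tested) and fibroblast-like cells, Plau, higher in neutrophil-like and fibroblast-like and lower in endothelial-like cells, and Ccnd1, lower in fibroblast-like cells.

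Heat shock genes, another class known to respond to handling and to protein damage, were called lower in 8 pairs of 125 and higher in 0. All 8 lay in macrophage-like, monocyte-like, dendritic-like or neutrophil-like cells, where 2.64%, 1.01%, 0.865% and 4.28% of all genes were called lower. In macrophage-like cells 12 of 13 lay below NT in every RT library (32.5% of all genes), with a median log2 ratio of -0.77 against -0.19 for the 10 genes and 0.00 for all genes. In monocyte-like cells it was 12 of 13 (22.5% of all genes), with a median of -0.88 against -0.73 and 0.15. The 7 dendritic cell markers in the monocyte-like sums moved too, from 91.4 CPM in NT to 10.45, 17.5 and 16.4 CPM, and their part in the monocyte-like values was not tested. In lymphocyte-like cells, where none was called, 10 of 12 lay below NT in every RT library (36.5% of all genes) with a median of -0.62, and in neutrophil-like cells 5 of 12 (42.3%) with a median of -0.17. Endothelial-like cells went the other way, with 8 of 13 above NT in every RT library (28.7% of all genes) and a median of 0.27. Hspa1a, an inducible HSP70, read 9717 CPM in NT against 2446, 3294 and 1940 CPM in RT1, RT2 and RT3 in monocyte-like cells, and 14305 CPM and 5186, 6347 and 4210 CPM in dendritic-like cells. Tumor-like cells had 35, 28.8, 44.8 and 21.9 CPM of Hspa1a, far below, with a median of -0.20 for the list against -0.49 for the 10 genes.

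**Figure D5:**
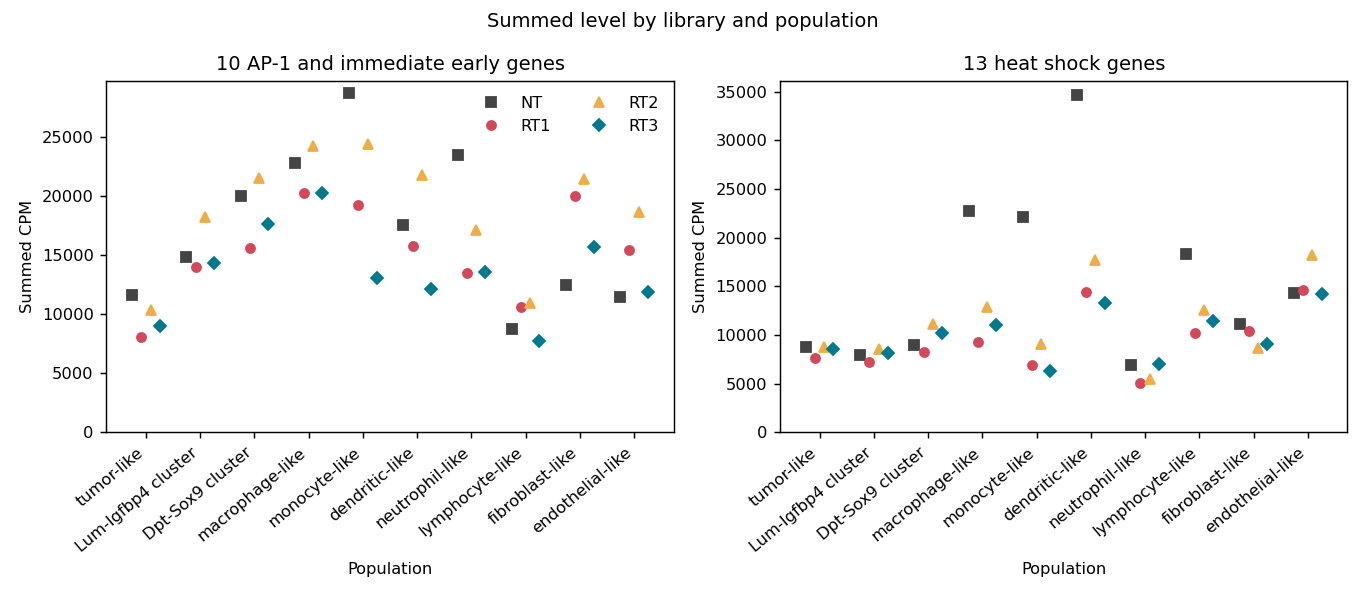
Summed CPM of the 10 genes (left) and of 13 heat shock genes (right) by population in NT, RT1, RT2 and RT3. The NT square of heat shock genes lies at 22773 CPM in macrophage-like and 22143 CPM in monocyte-like cells, above all RT libraries, while for the 10 genes RT2 exceeds NT in macrophage-like cells.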

How the data were processed

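The library kit was SeekOne MM Single Cell 3′, and per the labels the authors deposited whole-number UMI counts per gene and barcode, not normalized. The submitters' processing notes name STAR 2.5.1b, featureCounts of Subread 1.6.4, Cell Ranger and build GRCm39, with no order, while the study's methods name SeekOne Tools. The 18605 shared symbols were used. Barcodes under 200 genes or over 20% mitochondrial UMIs were left out, and those kept had a median of 5709, 3865, 5200 and 4158 UMIs in NT, RT1, RT2 and RT3. Counts were scaled to 10000 per cell, and 2000 variable genes gave 30 principal components, integrated with a rewritten Harmony (theta 2, lambda 1, sigma 0.1) and clustered by Leiden at resolution 0.8 over 20 neighbours (scikit-learn 1.9.0, leidenalg 0.10.2). Members and all compared lists were left out of the variable genes. Each cluster took the class whose markers led it. That naming rule was set after the clusters were seen, and doublets were scored but kept, apart from 1 cluster of high scores that was left out.

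UMIs were summed per library and population, sums of at least 10 cells entered edgeR 4.0.16 in R 4.3.3, and a sum of 0 was set to a floor of 3 counts in ratios. In simulated data for macrophage-like against tumor-like cells, over 9391 genes of which 200 were changed, 100% of 2-fold changes were recovered with 6 false calls. The real contrast called far more genes, 42.2% higher and 38.8% lower. The simulation did not cover that setting, so it does not give the false calls of the real contrast. The 4 libraries are the replicates, and the 3 RT libraries are separate tumors. The members and lists were chosen with earlier results of these data known. Named are the 10 genes, called genes of the other lists and those largest in size in the abundant populations, the most alike genes, and the most abundant markers. Alternatives were other filters, resolutions, scalings, thresholds, DESeq2 1.42.0 and leaving out libraries.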

Additional observations from a re-analysis of the deposited data

Results flagged for a closer look

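For 7 of the 10 genes, 2 populations moved to opposite sides of NT in every RT library. Of all pairs of gene and population, 31.7% lay above NT in every RT library and 31.7% below. The share of all genes with such opposite populations is not given, so the count does not set these genes apart. The difference between the populations was not tested. In each case the pair with the widest gap is given as the difference of mean log2 ratios. Fos was higher in endothelial-like and lower in neutrophil-like cells (gap 1.43). Fibroblast-like cells were higher and neutrophil-like cells lower in Fosb (gap 1.83), Jun (gap 1.23) and Jund (gap 1.89). Junb was higher in endothelial-like and lower in monocyte-like cells (gap 1.65). Atf3 was higher in fibroblast-like and lower in monocyte-like cells (gap 2.42). Egr1 was higher in tumor-like and lower in monocyte-like cells (gap 3.12), the former at 1.21 to 9.56 CPM. Fibroblast-like, neutrophil-like and endothelial-like cells numbered 17, 20 and 33 in NT, so most of these gaps rest on few NT cells. Markers of other cells moved in the sums of these populations as given above, and their part in the gaps was not tested.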

How the results depend on the processing

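Of 95 pairs of gene and population, recomputed 1473 times under 16 alternatives, 1409 values moved by less than the spread of the RT libraries, 64 by more and 0 called values turned direction. The 1409 include values that could not move. The 1.5-fold limit, the lack of a filter on low counts and the limit on NT cells leave a mean log2 ratio unchanged. Ier3 was called higher in macrophage-like, monocyte-like and lymphocyte-like cells in 17 of 17 settings, but in tumor-like cells in 13 of 17, with a mean log2 ratio of 1.25 to 1.69, in dendritic-like cells in 16 of 17 (1.12 to 2.53) and in endothelial-like cells, not called as reported, in 3 of 16 (0.21 to 1.89). These settings include the main one. A call could not be lost at 1.5-fold, without a filter on low counts or with an RT library left out. Nor could it be lost under the limit to populations of at least 50 NT cells. The counts of settings therefore overstate how firmly the calls hold. Calls of members that were lower, 0 as reported, came to 1 with at least 500 genes, 1 with at most 10% mitochondrial UMIs and 1 without integration, each time Jun in neutrophil-like cells, to 3 at 1.5-fold, and to 0 to 5 when an RT library was left out. The 5 arose without RT2 (Fosb, Junb and Ier2 in monocyte-like cells, Fosb and Jund in neutrophil-like cells). Egr1 in tumor-like cells was not called with at least 500 genes, without integration, with classes per cell or after thinning. Calls of the other lists, 21 higher and 21 lower, came to 53 and 70 at 1.5-fold, and to 28 to 34 higher and 26 to 44 lower without 1 RT library. Without thinning, the mean share of tumor-like cells with a UMI was 90.9% in place of 83.2% for Fos, 2.84% in place of 0.697% for Egr1 and 62.2% in place of 36.7% for Ier3. The cause of these shifts was not tested. Against tumor-like cells, 52 to 62 members were called higher and 10 to 15 lower over the alternatives with all 9 contrasts, and 37 in place of 46 with classes per cell over 7 contrasts. The thinned values and the limit to populations of at least 50 NT cells, with 9 calls higher, were added after seeing the data. No paired analysis was possible because NT holds 1 library and shares 1 replicate number with RT. Depth limits the NT sums of neutrophil-like, fibroblast-like, endothelial-like and dendritic-like cells.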

Other observations

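Barcodes that the mitochondrial filter removed carried more Jun than the kept ones, with 7716 CPM against 4329 CPM in NT and 4830 CPM against 3062 CPM in RT1. Ier3 read 361 CPM in the 165 removed NT barcodes and 185 CPM in the kept ones, 1181 CPM against 749 CPM in RT1 and 583 CPM against 473 CPM in RT3. Fos and Egr1 went the other way. Fos read 4355 CPM in removed against 4510 CPM in kept barcodes in NT, 4185 against 4759 CPM in RT1 and 3318 against 4235 CPM in RT3. Egr1 read 54.8 against 63.4 CPM, 139 against 230 CPM and 80.5 against 112 CPM in the same libraries. RT2 had no barcodes removed by that filter.

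The neutrophil-like sums also differed in their own markers. The 7 neutrophil markers, led by S100a8, summed to 10087 CPM in NT against 28432, 38715 and 24211 CPM in RT1, RT2 and RT3. Their part in the ratios of the 10 genes was not tested. In monocyte-like cells the 6 monocyte markers, led by Ly6c2, summed to 2585 CPM in NT and 4563, 5041 and 7618 CPM, with RT3, the library lowest in Fos and Egr1, at the top.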
